A study of Homo sapiens with 6 samples.

Results

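The 300 mRNAs described here came from protein-coding genes whose name is ZNF, a number and at most 1 further letter, and they had at least 150 counts in each of the 6 libraries. The count table lists 510 such genes among 60655 genes of all types. The remaining 210 had fewer than 150 counts in at least 1 library, and 157 of those were still deep enough to be tested. The members were chosen by name and by their count in every library, not by the size of the difference between the groups. The set was nevertheless proposed with that comparison in view, so the numbers of called mRNAs below are a description of the family.

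The data are RNA immunoprecipitation sequencing (RIP-seq) of WaGa cells, an established cell line of Merkel cell carcinoma (MCC), a neuroendocrine skin cancer. RNA that came down with an antibody against IGF2BP3 (IGF2BP3 IP, labelled IMP3) was compared with RNA that came down with an IgG antibody (IgG IP, the negative control), with 3 independent replicates in each group. All 6 libraries came from untreated cells of genotype WT that carry Merkel cell polyomavirus and were grown in the same medium, so the groups differ in the antibody alone as far as the labels go, and 1 cell line is the only model. The comparison asks which RNAs are bound by IGF2BP3 in these cells, and no library of the RNA before IP was analysed here.

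The libraries held 9758759 to 14886414 counts. All 10 MCC and neuroendocrine markers were present, with summed levels of 2161 to 3279 TPM (read levels scaled for transcript length and library depth) in the IgG IP and 2551 to 3391 TPM in the IGF2BP3 IP. The summed level of 10 markers of leukocytes, fibroblasts, endothelium, keratinocytes and melanocytes was 0.82 to 0.94 TPM and 0.65 to 1.75 TPM, with *PTPRC*, *CD3E*, *KRT14* and *MLANA* at 0 in every library. Replicate 1 differed from the other replicates within each group (chi-square per degree of freedom 18.2 to 22.003 for pairs with replicate 1, against 2.19 and 3.25 between replicates 2 and 3). Results below are therefore also given without single libraries where that matters.

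IGF2BP3 is a member of a family of RNA-binding proteins that attach to mRNAs and affect their stability, localization and translation. It is abundant in embryonic tissue, largely silent in adult tissue and expressed again in many cancers. ZNF genes form the largest group of human transcription factor genes. Most encode tandem C2H2 zinc fingers, short loops in which a pair of cysteines and a pair of histidines hold a zinc ion and whose side chains read DNA. Many also carry a KRAB domain at the N-terminus, which recruits TRIM28 and, through it, SETDB1, HP1 proteins and histone deacetylases, and so silences retrotransposons and other targets. These genes multiplied by tandem duplication, mostly on chromosome 19, and their repeats keep the coding sequences alike.

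The repeat is visible in the coding sequences of the members that the results turn on. The sequences below are shown because the same unit recurs within and between the mRNAs that were highest and lowest in the IGF2BP3 IP. They were read from GRCh38 at the coding exons of the canonical transcripts of GENCODE version 44. Capitals mark the codons of the cysteines and histidines that the finger pattern matched. In *ZNF592* the pattern also allows the histidine codon cat shortly before the last capitals, so which of these histidines holds the zinc ion was not settled. The first 5 lines are 84 bases long and run from the first cysteine codon of a finger to the end of the linker before the next finger. The last 2 lines hold a finger without a linker, of 66 and 69 bases. *ZNF611*, *ZNF280C*, *ZNF483* and *ZNF592* were among the 5 highest members, and *ZNF214* was the second lowest.
ZNF611 finger 6, chr19:52705522-52705605, minus strand: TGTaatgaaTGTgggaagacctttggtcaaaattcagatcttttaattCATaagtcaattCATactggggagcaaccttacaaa
ZNF611 finger 7, chr19:52705438-52705521, minus strand: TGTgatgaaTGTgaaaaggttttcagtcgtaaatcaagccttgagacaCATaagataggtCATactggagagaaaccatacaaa
ZNF611 finger 8, chr19:52705354-52705437, minus strand: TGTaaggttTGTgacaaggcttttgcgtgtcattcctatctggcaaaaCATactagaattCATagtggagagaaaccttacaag
ZNF483 finger 1, chr9:111542256-111542339, plus strand: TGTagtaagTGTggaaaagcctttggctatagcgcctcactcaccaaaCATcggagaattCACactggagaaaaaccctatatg
ZNF214 finger 3, chr11:7000522-7000605, minus strand: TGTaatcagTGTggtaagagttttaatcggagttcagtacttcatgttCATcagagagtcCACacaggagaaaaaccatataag
ZNF280C finger 2, chrX:130228996-130229061, minus strand: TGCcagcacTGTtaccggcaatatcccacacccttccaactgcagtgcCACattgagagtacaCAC
ZNF592 finger 1, chr15:84790708-84790776, plus strand: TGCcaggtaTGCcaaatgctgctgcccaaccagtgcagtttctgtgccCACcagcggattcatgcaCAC

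The 3 neighbouring repeats of *ZNF611* shared 55 to 58 of 84 bases with each other. The repeat of *ZNF214* shared 53 of 84 bases with that of *ZNF483*, although these mRNAs lay at opposite ends of the order of fold changes. In the translated coding sequences, 297 of the 300 members held at least 1 finger of this C2H2 spacing, with a median of 11 fingers and at most 36. *ZNF385A*, the highest member, had 3 fingers, each split by an exon junction, and none of its sequence is shown.

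After scaling, which centres the fold changes of all RNAs near 0, the ZNF mRNAs lay with the bulk of the mRNAs. Their log2 fold changes (IGF2BP3 IP over IgG IP, from edgeR) lay between -0.30 and 0.94, the median was -0.04, and 121 of the 300 were above 0. On log2(TPM + 1) values 226 were above 0, with a median of 0.10 beside one of 0.11 over all tested RNAs. The number of members above 0 thus depended on the table and its scaling. The median of the other 6823 protein-coding mRNAs over the same floor was also -0.04, and that of all 14507 tested RNAs was -0.01. In 276 members the 95% interval of the fold change lay wholly within 1.5-fold in either direction, so for these a difference of that size lay outside the interval. The interval reached past 1.5-fold on the higher side in 20 members and on the lower side in 4. A fold change here compares the RNA recovered with the IGF2BP3 antibody and with IgG. It is not a measure of the number of cells or of the RNA per cell, which bulk libraries cannot tell apart.

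Reads on the 300 mRNAs made up 2.07%, 2.20% and 2.19% of the counts of the IgG libraries, in the order of replicates 1 to 3 that all values below keep. The shares in the IGF2BP3 libraries were 2.05%, 2.27% and 2.20%. The groups overlapped, with means of 2.15% ± 0.0706 (SD, n = 3) in the IgG IP and 2.17% ± 0.11 (SD, n = 3) in the IGF2BP3 IP, and replicate 1 was lowest in both. Measured from each library's own levels, the median member differed from its IgG IP mean by -0.10, 0.02 and -0.02 on the log2 scale in the 3 IGF2BP3 libraries. The members reached 2.66 to 437 TPM as a mean over the 6 libraries, with a median of 19.7 TPM.

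**Figure D1:**
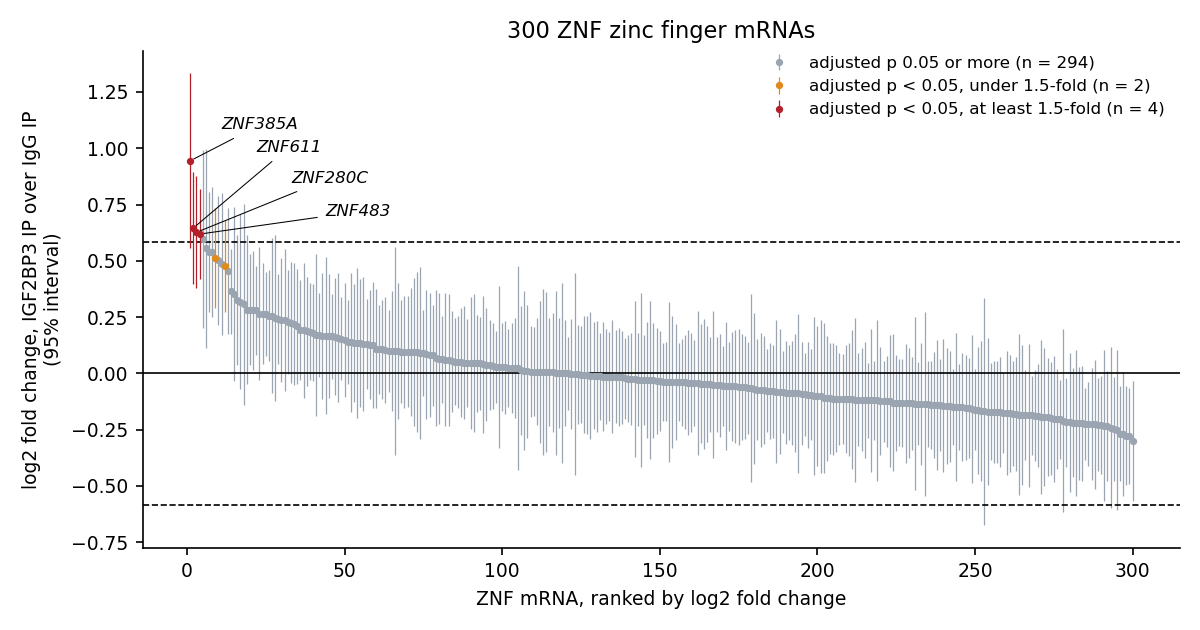
The 300 ZNF mRNAs ranked by log2 fold change (IGF2BP3 IP over IgG IP, y axis) with 95% intervals from edgeR, where dashed lines mark 1.5-fold and colours mark the 4 mRNAs past both thresholds and the 2 past the adjusted p alone. The points run from 0.94 to -0.30, and most intervals stay between the dashed lines.

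The calls among the members were few. By the thresholds of the study, at least 1.5-fold and a Benjamini-Hochberg adjusted p under 0.05 (edgeR quasi-likelihood test over 14507 RNAs), 4 of the 300 members were enriched, which is 1.33%, against 1.16% of all tested RNAs and 1.35% of the 7123 protein-coding mRNAs over the same floor. No member was lower by these thresholds (0 of 300, against 0.0% of all tested RNAs; DESeq2 also called 0 lower), while 12 members had an unadjusted p under 0.05 in that direction against 3.1% of all tested RNAs and 4.82% of the protein-coding ones. On the higher side 22 members had an unadjusted p under 0.05, against 9.72% and 9.46%. The IGF2BP3 libraries lay wholly above the IgG libraries in 30 members and wholly below them in 32, against 12% and 8.69% of all tested RNAs and 11.2% and 13.7% of the protein-coding mRNAs over the floor. Nothing is read from these shares, since the set was proposed with this comparison known.

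The adjusted p alone, without the fold minimum, was passed by 6 members on the higher side and 0 on the lower side, against 1.4% and 0.0% of all tested RNAs and 1.83% and 0.0% of the protein-coding mRNAs over the floor. With the replicate number as a block these became 29 and 19 members, against 10.9% and 5.23% of all tested RNAs and 12.6% and 9.66% of the protein-coding mRNAs. At 1.5-fold the block left 5 members enriched and 0 lower, against 3.56% and 0.103% of all tested RNAs and 1.92% and 0.0% of the protein-coding mRNAs. The block thus called more of the small differences in both directions, and the 1.5-fold calls gained *ZNF592* alone. The study made its own calls with DESeq2 rather than edgeR. Here DESeq2 without a block called 4 members enriched, and they were the same 4 genes. The shares were 2.22% of the 12640 RNAs that it gave an adjusted p and 1.78% of the protein-coding mRNAs over the floor.

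*ZNF385A* (ENSG00000161642.18) encodes a protein known to bind RNA and to direct p53 towards cell cycle arrest genes. In GRCh38 it spans 54369133 to 54391298 of chromosome 12, minus strand, and its canonical transcript has 7 exons. The IgG libraries had 68.2, 86.4 and 84.4 normalized CPM of its reads, the counts per 1000000 after TMM scaling, and the IGF2BP3 libraries had 112, 173 and 175. All 3 IGF2BP3 IP libraries were above all 3 IgG IP libraries, and replicate 1 was the lowest in both groups. The log2 fold change was 0.94 (SE 0.17, adjusted p = 0.037 by edgeR with Benjamini-Hochberg adjustment), the highest among the 300 members. The same-numbered pairs differed by 0.72, 1.00 and 1.05 on the log2 scale. Its transcript is GC-rich, at 62.8%, and once GC content was corrected for in each library its log2 fold change was 0.73 with an adjusted p of 0.14 (edgeR). With the replicate block added to that correction it was 0.72 with an adjusted p of 6.2e-08.

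*ZNF611* (ENSG00000213020.10), a KRAB zinc finger gene of chromosome 19 (52702813 to 52735073, minus strand, 6 exons), had normalized CPM of 57.1, 59.4 and 63.0 with IgG and 79.8, 104 and 97.3 with the IGF2BP3 antibody. The groups did not overlap, and IGF2BP3 IP replicate 1 was again the lowest of its group. Its log2 fold change was 0.65 (SE 0.11, edgeR adjusted p = 0.032).

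*ZNF280C* (ENSG00000056277.16) is a gene of the X chromosome (130202707 to 130268899, minus strand, 19 exons) without a KRAB motif. It had 24.7, 20.9 and 21.6 normalized CPM with IgG and 34.0, 36.03 and 33.5 with the IGF2BP3 antibody. The libraries of each group lay close together and the groups did not overlap. Its log2 fold change was 0.63 (SE 0.11, edgeR adjusted p = 0.034).

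*ZNF483* (ENSG00000173258.13), a KRAB zinc finger gene of chromosome 9 (111525159 to 111577844, plus strand, 6 exons), had 75.6, 74.0 and 74.2 normalized CPM with IgG and 122, 118 and 103 with the IGF2BP3 antibody. The IgG IP libraries were nearly equal, and the lowest IGF2BP3 IP library, replicate 3, was still above them. Its log2 fold change was 0.62 (SE 0.09, edgeR adjusted p = 0.017), and this was the smallest adjusted p among the members. Its canonical transcript is long, at 14694 bases, and with a correction for length its log2 fold change was 0.44 (adjusted p = 0.076, edgeR).

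With 3 libraries against 3, the exact two-sided permutation test gave p = 0.1 for each of these 4 mRNAs, the smallest it can give. All 4 calls were lost without replicate 2 or without replicate 3 of either group, each of which left 0 members enriched. Without IGF2BP3 IP replicate 1 the call for *ZNF483* was lost, and without IgG IP replicate 1 that for *ZNF385A*. The log2 fold changes themselves stayed between 0.56 and 1.12 in these fits. With the correction for transcript length *ZNF611* and *ZNF280C* were at 0.56 and 0.55, under the fold minimum, and the call for *ZNF385A* alone remained. On log2(TPM + 1) values with limma the 4 log2 fold changes were 1.20, 0.75, 0.71 and 0.65 in the order given, with adjusted p of 0.64, 0.75, 0.68 and 0.67, and no RNA of any kind passed. At an unadjusted p under 0.05 limma had 11 members higher and 0 lower, against 5.78% and 0.6% of all tested RNAs and 4.24% and 0.0562% of the protein-coding mRNAs over the floor.

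**Figure D2:**
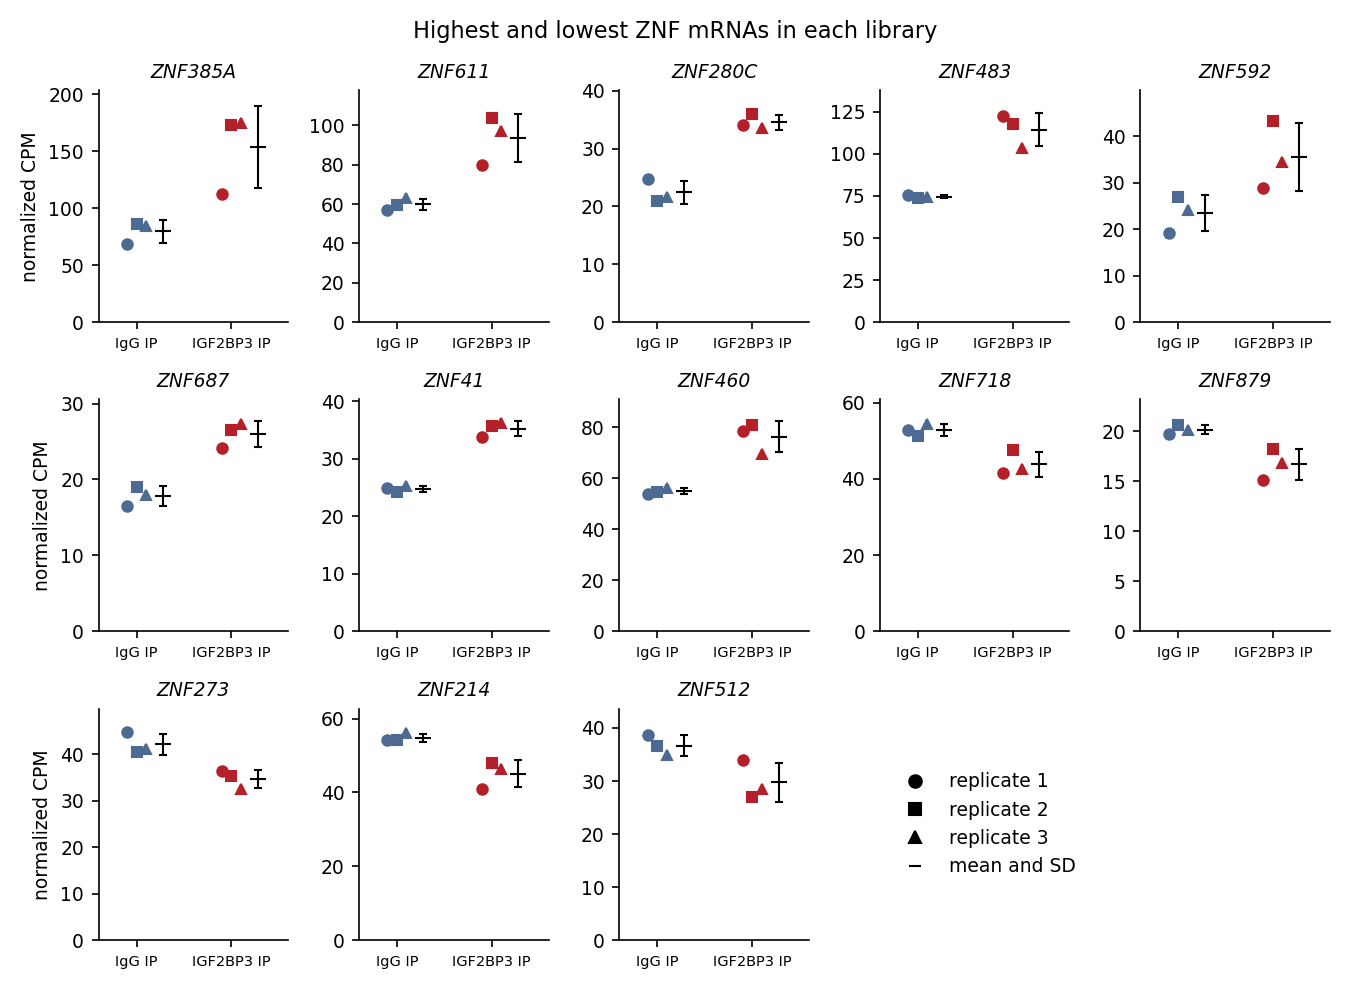
Normalized CPM (y axis) of the 5 highest members, of *ZNF687*, *ZNF41* and *ZNF460*, and of the 5 lowest members in each library, with symbols for replicates 1 to 3 and the mean with its SD (n = 3 per group). The IGF2BP3 IP libraries lie above the IgG IP libraries in the first 8 panels and below them in the last 5.

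*ZNF592*, *ZNF687* and *ZNF532* encode related proteins that work in chromatin complexes with the reader protein ZMYND8. *ZNF592* had 19.2, 26.9 and 24.2 normalized CPM with IgG and 29.0, 43.4 and 34.5 with the IGF2BP3 antibody. The groups did not overlap, and the libraries of each group were spread wide, with replicate 2 highest in both. Its log2 fold change was 0.60 (SE 0.18, edgeR adjusted p = 0.175), and with the replicate block it was 0.60 with an adjusted p of 2.6e-05, past both thresholds. *ZNF687* had 16.5, 19.03 and 17.99 normalized CPM against 24.1, 26.6 and 27.3, with a log2 difference of 0.54 (SE 0.12, edgeR adjusted p = 0.070). *ZNF532* had 101, 113 and 121 against 128, 137 and 132, with a log2 difference of 0.24 (SE 0.09, edgeR adjusted p = 0.29). For all 3 mRNAs the groups did not overlap, and none of the edgeR adjusted p given here passed without the block. Under the block the adjusted p (edgeR) was 0.00031 for *ZNF687* and 0.0084 for *ZNF532*, and both stayed under the fold minimum. DESeq2 without a block gave *ZNF687* an adjusted p of 0.022, with a log2 fold change of 0.53, under the fold minimum.

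*ZNF41* and *ZNF460*, KRAB zinc finger genes, were the members that passed the adjusted p of edgeR without the block but not the fold minimum. They are named here because of their values. *ZNF41* had 24.8, 24.1 and 25.2 normalized CPM with IgG and 33.8, 35.7 and 36.3 with the IGF2BP3 antibody, with a log2 difference of 0.51 (SE 0.10, edgeR adjusted p = 0.041). *ZNF460* had 53.9, 54.5 and 56.1 against 78.6, 80.9 and 69.3, with a log2 difference of 0.48 (SE 0.09, edgeR adjusted p = 0.041). In both, the lowest IGF2BP3 IP library was above the highest IgG IP library. *ZNF460* no longer passed without any 1 of the 6 libraries (edgeR adjusted p 0.065 to 0.24), and *ZNF41* passed only without IGF2BP3 IP replicate 1 (0.047, and 0.064 to 0.25 without the others).

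The 5 lowest members were *ZNF718*, *ZNF879*, *ZNF273*, *ZNF214* and *ZNF512*, with log2 fold changes of -0.27, -0.27, -0.28, -0.28 and -0.30. Their adjusted p (edgeR) ran from 0.24 to 0.40, so none was called. With the replicate block it ran from 0.013 to 0.086 (edgeR) and was under 0.05 in all but *ZNF879*. All 5 stayed under the fold minimum in that fit. *ZNF214*, a KRAB zinc finger gene near the imprinted region of chromosome 11, had 54.2, 54.1 and 56.1 normalized CPM with IgG and 41.1, 48.0 and 46.3 with the IGF2BP3 antibody. In all 5 the IGF2BP3 libraries lay wholly below the IgG libraries. This order was shown by 8.69% of all tested RNAs and 13.7% of the protein-coding mRNAs over the floor. The 5 were picked for their low fold changes, so nothing is read from it. *ZNF512* had 38.7, 36.5 and 34.8 normalized CPM against 33.9, 27.0 and 28.4. Its exons overlap a long noncoding RNA gene of the same strand (ENSG00000259080) over 31.5% of their length, and in TPM its log2 fold change was 0.23 in place of -0.30. The direction for *ZNF512* therefore depends on which deposited table is read. On log2(TPM + 1) values *ZNF718*, *ZNF879*, *ZNF273* and *ZNF214* stood at -0.04, -0.25, -0.07 and -0.01, so all but *ZNF879* lay nearer 0 than on counts. With the GC correction (edgeR) the log2 fold changes of the 5 were -0.14, -0.22, -0.15, -0.17 and -0.28, in the order first given.

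None of the 5 most abundant members passed a threshold in edgeR without the block. *ZNF706*, a small single-finger protein linked to the exit from pluripotency, had 444 ± 79.1 TPM (SD, n = 3) in the IgG IP and 430 ± 105 TPM (SD, n = 3) in the IGF2BP3 IP. *ZNF124* had 262 ± 8.29 and 270 ± 11.6 TPM (SD, n = 3). *ZNF146*, a protein made almost wholly of zinc fingers, had 252 ± 67.0 and 252 ± 46.7 TPM (SD, n = 3). *ZNF664* had 220 ± 31.8 and 243 ± 15.4 TPM (SD, n = 3). *ZNF207*, whose protein BuGZ helps load BUB3 at kinetochores, had 168 ± 26.7 and 192 ± 26.2 TPM (SD, n = 3). The groups overlapped for each of the 5 mRNAs within these errors, and their log2 fold changes from counts ran from -0.19 to -0.02 (adjusted p 0.35 to 0.97, edgeR). Neighbours in this order of levels did not differ beyond their spread, apart from the step from *ZNF706* to *ZNF124* and, in the IGF2BP3 libraries, that from *ZNF664* to *ZNF207*. On counts *ZNF706* had 266, 257 and 245 normalized CPM against 221, 238 and 216, so that by this measure its groups did not overlap. With the replicate block its log2 fold change was -0.19 with an adjusted p of 0.025 (edgeR), under the fold minimum.

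Of 18 ZNF genes listed for a known role, 16 were members and 0 of them passed the thresholds without the block, against 1.16% of all tested RNAs and 1.35% of the protein-coding mRNAs over the floor. Among the KRAB proteins of known targets, *ZNF91*, which silences SVA retrotransposons, had 144, 152 and 141 normalized CPM with IgG and 135, 162 and 155 with the IGF2BP3 antibody, a log2 fold change of 0.05. *ZNF93*, which silences LINE-1 elements, had 92.5, 80.8 and 70.0 against 71.4, 74.5 and 82.8, a log2 fold change of -0.09. *ZNF445*, which helps maintain imprinting, had a log2 fold change of 0.14, and *ZNF274*, which brings SETDB1 to the 3' ends of ZNF genes, one of -0.01. The groups overlapped for all 4, with adjusted p from 0.73 to 0.98 (edgeR). The 95% intervals of the 4 log2 fold changes together spanned -0.35 to 0.45.

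Among activators, repressors and cofactors, *ZNF148* (ZBP-89, a regulator of GC-rich promoters) differed by 0.26 on the log2 scale (edgeR adjusted p = 0.265), with 61.0, 65.7 and 68.9 normalized CPM against 75.4, 83.3 and 74.9 and no overlap between the groups. *ZNF281*, a regulator of pluripotency and epithelial-mesenchymal transition, differed by -0.17 (edgeR adjusted p = 0.41), with 122, 130 and 131 against 107, 119 and 114 and again no overlap. Under the replicate block the adjusted p (edgeR) was 0.013 for *ZNF148* and 0.049 for *ZNF281*, and both stayed under the fold minimum. The groups overlapped for the other members of this kind, and with the block their adjusted p (edgeR) ran from 0.11 to 0.94. *ZNF143*, an activator bound at many promoters, stood at -0.01 on the log2 scale, *ZNF217*, an oncogene amplified in breast cancer, at -0.11, *ZNF462*, a chromatin protein of embryonic cells, at 0.17, and *ZNF644*, a partner of the histone methyltransferases EHMT1 and EHMT2, at -0.14. *ZNF451*, a SUMO ligase, stood at 0.09, and *ZNF638*, which brings the HUSH silencing complex to unintegrated retroviral DNA, at -0.06.

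**Figure D3:**
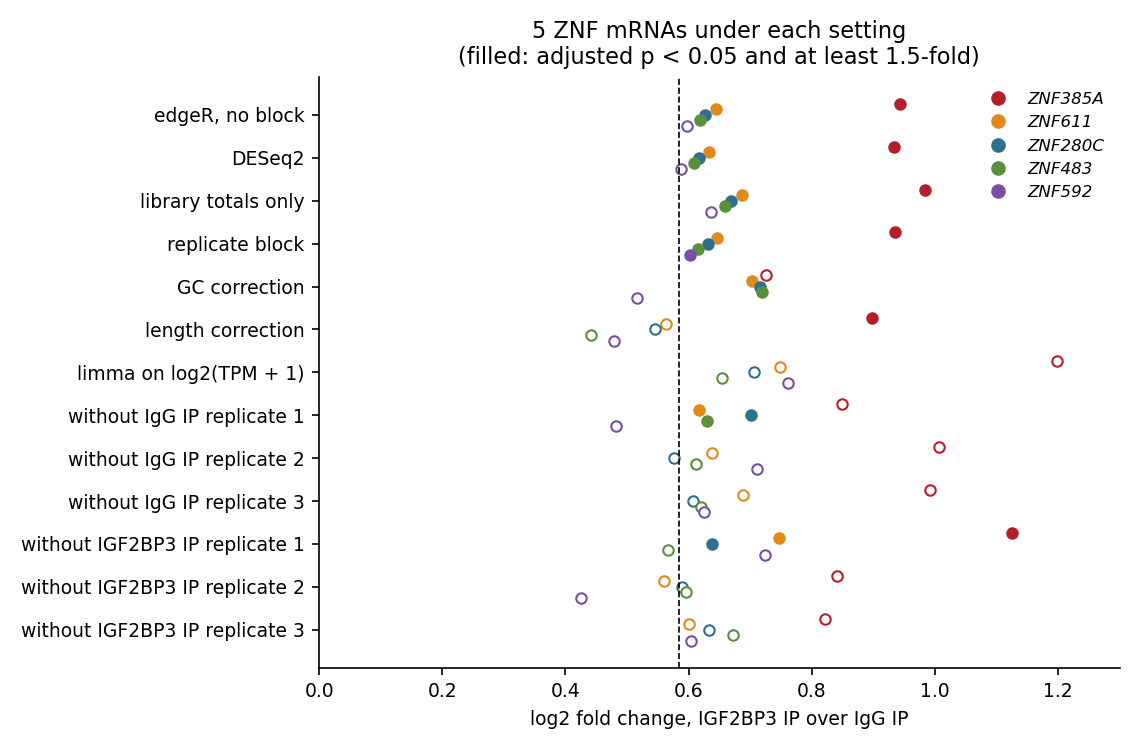
Log2 fold change (x axis) of the 5 highest members under 13 settings (rows), where filled points passed an adjusted p under 0.05 and 1.5-fold (dashed line). Every point is above 0, and the setting with the replicate block is the only one of these 13 with all 5 points filled.

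A KRAB A box motif was found before the first finger in 207 members and not in 93. The median log2 fold change was -0.04 with the motif and -0.03 without it. Each of these groups held 2 of the calls, *ZNF611* and *ZNF483* with the motif and *ZNF385A* and *ZNF280C* without. The upper end was wider without KRAB, where the 90th percentile was 0.30 against 0.17, and the 10th percentiles were -0.17 and -0.20. Members without KRAB also had slightly higher GC content, with medians of 42.1% and 41.1%. By finger number the medians were -0.01, -0.03, -0.04 and -0.05 on the log2 scale for 32 members with up to 4 fingers, 76 with 5 to 9, 119 with 10 to 14 and 73 with at least 15, and Spearman's rho between fold change and finger number was -0.01 across the 300 members, which share the same 6 libraries.

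Chromosome 19 held 157 of the members, 142 of them with the KRAB motif. Their median log2 fold change was -0.03, against -0.04 for the 143 members elsewhere. When members with starts less than 1000000 bases apart were joined, 8 groups of at least 7 members formed. The medians were -0.09 in the 17 members from *ZNF101* to *ZNF43* and -0.12 in the 7 from *ZNF730* to *ZNF254*, with 1 member above 0 in each, and these were the groups of lowest GC content, at 37.2% and 36.3%. The lowest median, -0.15, was that of the 14 members from *ZNF576* to *ZNF180*, with 2 above 0, and their GC content of 43.1% was above the family median. The distal groups, 32 members from *ZNF175* to *ZNF331* and 34 from *ZNF583* to *ZNF584*, had medians of 0.00 and 0.01, with 17 and 19 above 0. These groups were formed and read after the values were known, and no test was made of them.

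**Figure D4:**
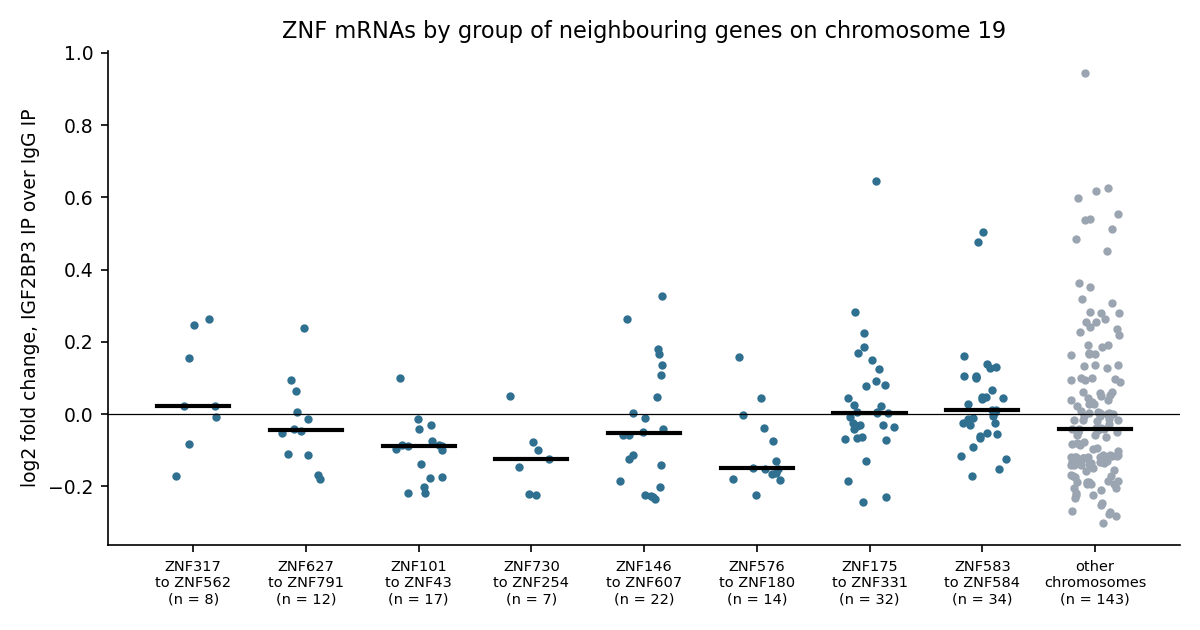
Log2 fold change (IGF2BP3 IP over IgG IP, y axis) of the members in the 8 groups of neighbouring chromosome 19 genes with at least 7 members, in chromosomal order, and on other chromosomes, with a bar at each median. The group from *ZNF576* to *ZNF180* has the lowest bar, at -0.15, and *ZNF611* is the high point of the group from *ZNF175* to *ZNF331*.

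Transcript GC content moved with the fold change. In 4 equal groups of the members by GC content (33.2% to 39.0%, to 41.6%, to 44.9% and to 70.2%) the median log2 fold changes were -0.10, -0.08, -0.02 and 0.09, with 18, 23, 29 and 51 of 75 members above 0. The other protein-coding mRNAs over the floor had medians of -0.14, -0.09, -0.06 and 0.04 in the same ranges. Spearman's rho with GC content was 0.41 across the 300 members and 0.51 across the others, which are descriptions over genes measured in the same 6 libraries. *ZNF611*, *ZNF280C* and *ZNF483* had GC contents of 40.5%, 38.2% and 37.4%. From the lowest to the highest GC range 2, 1, 0 and 1 of 75 members were enriched, beside 0 of 1240, 1 of 1092, 7 of 1240 and 84 of 3228 other mRNAs. *ZNF592* and *ZNF687*, at 52.0% and 59.1%, and *ZNF385A* were in the group of highest GC content. Whether GC content has a part in these differences was not tested.

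**Figure D5:**
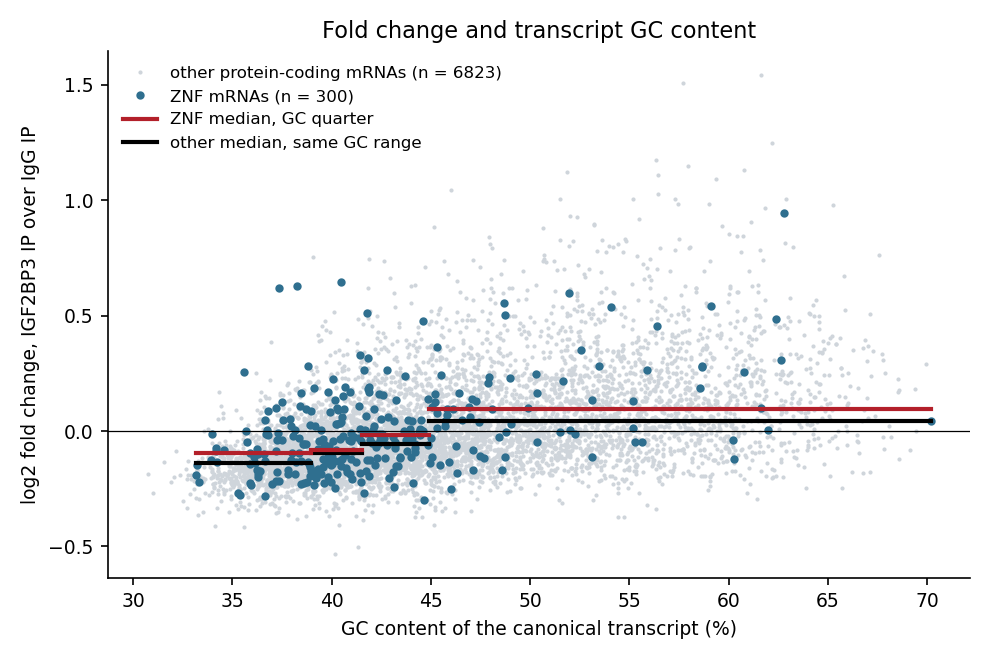
Log2 fold change (y axis) against GC content of the canonical transcript in percent (x axis) for the 300 ZNF mRNAs and 6823 other protein-coding mRNAs over the floor, with bars at the medians of each GC range. Both sets of bars rise from left to right, and 3 ZNF mRNAs near 0.6 stand out between 37% and 41% GC.

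Longer transcripts also had higher fold changes. Of 4 equal groups by length, the longest had a median log2 fold change of 0.02 and the shortest one of -0.09, with a rho of 0.24 across the 300 members against 0.26 across the other mRNAs. The members with the lowest counts, 105 with a minimum under 300 counts, had a median of 0.01, and the 46 with at least 1000 counts in every library had one of -0.10. The median standard error was 0.13 in the first and 0.09 in the second, so the fold changes of the scarcer mRNAs were also less precise. The parts of length and depth in the fold changes were not tested.

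IGF2BP proteins are known to bind CA-rich elements, and the letters CACA were counted on the transcript strand, overlapping matches included. The canonical transcripts of the members held a median of 6.24 matches per kb, against 4.17 in the other protein-coding mRNAs over the floor. The excess lay in the coding sequence, with 8.77 against 4.22 matches per kb, while outside it the medians were 4.50 and 3.77. Of 5203 matches in the members' coding sequences, 933 (17.9%) touched the codons from the last histidine of a finger through a TGEKP linker, a stretch that held 4.67% of the coding bases. A match counted when any of its bases lay in the stretch, so these percentages are not on the same footing. The match is seen in the printed repeat of *ZNF214*, where the stretch CACacagg crosses from the last histidine codon into the linker. The printed repeats of *ZNF611* held 0 or 1 match, that of *ZNF214* held 2 and the shorter finger of *ZNF280C* held 3. Across the members rho between fold change and CACA matches per kb was 0.21, against 0.23 in the other mRNAs.

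The same-numbered pairs of libraries gave the fold changes of the members in a partly shared order. Across the 300 members, rho between the difference in replicate 1 and the mean difference in replicates 2 and 3 was 0.53, against 0.63 across the other protein-coding mRNAs over the floor. In 58 members the IGF2BP3 IP was higher in all 3 pairs and in 86 it was lower in all 3, against 23.8% and 35% of the other protein-coding mRNAs over the floor.

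Some members shared sequence with other genes. In 238 members no stretch of 150 bases, the length of a read, occurred in the transcripts of another gene, and in 19 more than 10% of such stretches did. The 4 enriched members had 0% of such stretches, while *ZNF512*, the lowest member, had 29.5%. Exons of 170 members overlapped another annotated gene, 83 of them on the same strand, and the medians were -0.03 for these 83, -0.03 for the 87 with opposite-strand overlap alone and -0.04 for the 130 without overlap. Of the enriched members only *ZNF483* overlapped a gene, *PTGR1*, on the opposite strand over 0.466% of its exon length.

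The genes whose products work with KRAB zinc finger proteins were counted from a list of 36 names, of which 35 were found in the table and tested. In this list 1 gene was enriched and 0 were lower, against 1.16% and 0.0% of all tested RNAs, the median log2 fold change was 0.03, and 21 of 35 were above 0. The enriched gene was *CBX5*, which encodes the heterochromatin protein HP1 alpha. It had 1252, 1300 and 1358 normalized CPM with IgG and 1996, 2162 and 1850 with the IGF2BP3 antibody, without overlap and with a log2 difference of 0.62 (SE 0.09, edgeR adjusted p = 0.016). *TRIM28*, the corepressor that KRAB domains bind, had 70.8, 89.0 and 89.1 against 116, 124 and 124, again without overlap, and its log2 fold change of 0.54 (SE 0.10, edgeR adjusted p = 0.041) was under the fold minimum. With the GC correction *TRIM28*, at 64.2% GC, had a log2 fold change of 0.32 (edgeR adjusted p = 0.24, and 0.00044 with the block added), and its adjusted p rose to 0.13 to 0.25 without replicate 2 or 3 of either group. *SETDB1*, the histone methyltransferase recruited by TRIM28, had 30.4, 31.6 and 28.4 against 35.0, 31.1 and 33.8, with overlap and a log2 fold change of 0.14 (adjusted p = 0.61, edgeR). *CBX3*, another HP1 gene, was the lowest of the list at -0.24 (adjusted p = 0.25, edgeR). The call for *CBX5* was lost without IGF2BP3 IP replicate 2, IgG IP replicate 2 or IgG IP replicate 3, where its log2 fold change was 0.56, 0.62 and 0.66.

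Other families of C2H2 zinc finger genes had fewer members over the same floor. The median log2 fold changes were 0.03 for 10 ZFP genes, -0.09 for 8 ZSCAN genes, 0.12 for 6 ZKSCAN genes and -0.05 for 25 ZBTB genes, and 0 of these genes passed both thresholds, against 1.16% of all tested RNAs.

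At the floor of 150 counts, the members with the smallest minimum were *ZNF501* and *ZNF418*, both with 151 counts, and *ZNF687* with 152, and the nearest genes outside were *ZNF16* and *ZNF394* with 147 and *ZNF66* with 144. The 157 tested ZNF genes under the floor had a median log2 fold change of 0.09 and a median standard error of 0.19, against 0.11 in the members. Of these 1 gene, *ZNF488*, was past both thresholds, against 1.16% of all tested RNAs. It had 2.82, 2.48 and 2.90 normalized CPM with IgG and 6.38, 5.59 and 6.10 with the IGF2BP3 antibody. *ZNF488*, which is named for its value, had a log2 fold change of 1.14 (SE 0.19, edgeR adjusted p = 0.029), on 26 to 76 counts per library. It also passed with DESeq2, the length correction and the replicate block (adjusted p 0.0056, 0.035 and 0.00034). With the GC correction (edgeR adjusted p = 0.058) and with limma on log2(TPM + 1) (adjusted p = 0.57) it did not.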

How the data were processed

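RIP-seq of WaGa cells gave 3 IGF2BP3 IP and 3 IgG IP libraries, with groups and replicate numbers from the sample labels. The authors aligned 150 bp paired-end reads to GRCh38 with STAR 2.7.9a and used RSEM with GENCODE version 37 (methods and the submitters' processing notes). The authors deposited raw counts, which are whole numbers for each gene, and TPM values. The program behind the counts and its use of strand are not given in the sources used here, so overlapping genes are uncertain. The deposited FPKM values were not used.

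Counts were filtered with filterByExpr, scaled by TMM and fitted in edgeR 4.0.16 (R 4.3.3, quasi-likelihood F test) over 14507 RNAs with condition as the only term. A call needed a 1.5-fold difference and an adjusted p under 0.05 (Benjamini-Hochberg). CPM use the TMM library sizes. Alternatives were DESeq2 1.42.0, other size factors and filters, limma 3.58.1 on log2 TPM with a pseudocount of 1 or 0.1, loess corrections (span 0.5) for GC content and length, a replicate block, other floors and leaving out each library. Library totals were 9758759 to 14886414 counts, and the biological coefficient of variation was 13.4%. A fit with replicate 1 as a term, and the block without the fold minimum, were added after seeing the data. The code was tested on simulated data.

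Deviations of same-numbered libraries from their group means correlated at 0.57, 0.28 and 0.23 for replicates 1 to 3, and those of replicates 2 and 3 crossed at 0.28 and 0.27. Every same-numbered pair was over 0.1, but so were the crossed pairs of replicates 2 and 3. The correlations therefore cannot show how these replicates pair. The numbers come from the labels, and on the labels alone they were taken to pair the libraries in the block and in the pair differences. The main fit, with condition as its only term, did not use this pairing.

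Gene models came from GENCODE version 44 on GRCh38, where 60481 of 60655 identifiers and all 300 members were found. Fingers (C-X2-4-C-X12-H-X3-5-H) and KRAB A boxes were searched as patterns in translated coding sequences, in place of the protein table first planned, and divergent boxes can be missed. The members and gene lists were chosen with earlier results of these data known. The named members were those past the thresholds, the 5 highest and 5 lowest fold changes, the 5 highest mean TPM, the 3 nearest the floor and a list of known roles, and among partner genes those past the thresholds, *TRIM28* and *SETDB1*. *ZNF41*, *ZNF460*, *ZNF488* and *CBX3* were named after their values were seen.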

Additional observations from a re-analysis of the deposited data

How the results depend on the processing

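The number of enriched ZNF mRNAs was 4 with DESeq2, with RLE, upper-quartile or no scaling factors, and under either expression filter, 3 with the GC correction, which lost *ZNF385A*, 4 with the GC correction and the replicate block, *ZNF385A* among them, and 5 with the block alone. It was 1 with the length correction, with or without the replicate block, where *ZNF385A* alone passed, and 0 with limma on log2(TPM + 1) or log2(TPM + 0.1). Leaving out 1 library gave 0 to 3. With the replicate block and no fold minimum, 29 were higher and 19 lower. The median log2 fold change of the members, -0.04, became -0.12 with the length correction (-0.12 with the block as well), and 0.10 in both limma fits, which moved the median over all RNAs tested to 0.11 (pseudocount 1) and 0.13 (0.1). It ran from -0.0685 to -0.0026 without single libraries. It was 0.01 with the GC correction, and 0.00 with library totals alone. With a floor of 100 or 300 counts, 345 or 195 mRNAs were members and 4 or 3 were enriched. The share of counts on the members differed by 0.0221 percentage points, and the share of summed TPM by 0.0589.

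Of all tested RNAs, 169 were enriched and 0 lower. The numbers were 281 with DESeq2, 321 and 1 with DESeq2 and the block, 517 and 15 with the edgeR block, 537 and 23 with replicate 1 as a term, and 1587 and 759 with the block and no fold minimum. They were 81 with the GC correction, 272 and 34 with the block added, 142 with the length correction, 396 and 24 with the block added, 359 and 1 without the filter, and 0 in both limma fits. Without single libraries they ran from 0 to 244. Of the KRAB partner genes, 1 was enriched, 0 with the length correction (also with the block) or in limma, 2 without the fold minimum, 6 and 1 lower with the block and no fold minimum, and 0 to 1 without single libraries. Without other corrections the block changed, among the named members at 1.5-fold, the call of *ZNF592* alone. The cause of these differences was not tested.

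Of 36 single genes, 5 lost their call under at least 1 alternative and 16 changed sign, none of them called. Counting noise limits the members near the floor most, and no interval for single libraries was computed. The p-values rest on 3 libraries of 1 cell line per group.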

Other observations

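Among ZNF genes, 3 fell under the floor of 150 counts although their mean TPM was above the median member. *ZNF410*, whose protein controls the NuRD subunit gene *CHD4*, had 43 to 86 counts per library and a mean of 63.3 TPM. *ZNF511* had 97 to 124 counts and 37.3 TPM, and *ZNF625* had 20 to 48 counts and 24.6 TPM. These genes are therefore missing from the 300 for their low values in the count table alone, and their log2 fold changes were -0.48, -0.07 and 0.03 (adjusted p 0.57, 0.93 and 0.98, edgeR). In all, 27 of the 510 ZNF genes had 0 counts in every library.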
